A study of Mus musculus with 37 samples.

Results

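The genes described here are those of the proteasome, chosen by their names. A gene was a member if its symbol began with Psm, a letter from a to g and a digit, and 50 of the 21450 gene symbols in the probe set met that rule. Of these, 48 encode subunits, activators, the inhibitor or assembly chaperones of the proteasome. The other two are Psmc3ip, which encodes a recombination factor, and Psme2b, an intronless copy of Psme2. Each gene was followed by its probe with the highest total count. By that probe 49 members passed the filter on low counts, and Psmb11, the thymus-specific catalytic subunit, did not, with 14 counts over all mice.

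The proteasome is the protease that degrades ubiquitin-tagged proteins. Its core particle, a barrel of alpha and beta rings, holds the catalytic subunits Psmb5, Psmb6 and Psmb7. Under interferon-gamma these can be replaced by Psmb8, Psmb9 and Psmb10, which form the immunoproteasome. The 19S regulatory particle, built of ATPases (Psmc genes) and non-ATPase subunits (Psmd genes), recognises and unfolds substrates, whereas the PA28 cap of Psme1 and Psme2 opens the core without ubiquitin. In liver the transcription factor Nrf1, encoded by Nfe2l1, is known to drive the subunit genes when proteasome activity is limiting.

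Livers of 37 adult Crl:CD1(ICR) mice, an outbred stock, were studied after daily oral gavage of HFPO-DA, a short-chain perfluoroalkyl ether acid, or of its vehicle, deionized water. There were 5 male controls and 5 males given 0.1 mg/kg, 5 given 0.5 mg/kg and 4 given 5 mg/kg. There were 5 female controls, with 5, 4 and 4 females at these doses. Males were 6 weeks old at the first dose and received 84 to 85 doses, with mating after 70 days. Females were 11 weeks old, received 53 to 65 doses from 14 days before mating, and were sampled after their last dose on lactation day 20 or 21. Sex therefore cannot be told apart from age, length of dosing and lactation in any comparison between males and females. The assay was TempO-Seq on sections of fixed, paraffin-embedded liver, where a pair of probes is ligated on a short target in the transcript and the products are counted. Probes differ in efficiency, so levels were compared between mice and not between genes.

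Total counts ranged from 2101500 to 10548200 per male and from 7952600 to 13878300 per female, and 4 males lay under 5000000, 2 of them at 5 mg/kg. Levels are given as CPM, counts per 1000000 after TMM scaling. The 5 hepatocyte markers (Alb, Ttr, Apoa2, Serpina1a and Hnf4a) had counts in every group, and their summed level ran from 10258 to 17132 CPM in male controls, 10950 to 12653 CPM in males at 5 mg/kg, 15279 to 22013 CPM in female controls and 14010 to 16683 CPM in females at 5 mg/kg. Serpina1a fell in both sexes and Ttr fell in females. In bulk liver, fewer cells of a type and less RNA per cell cannot be told apart. As a check of exposure, the target genes of PPARα Ehhadh, Cyp4a14, Acot1 and Pex11a rose in both sexes at 0.5 and 5 mg/kg.

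At 5 mg/kg a minority of proteasome genes rose, by 1.39- to 2.28-fold in males and 1.47- to 2.15-fold in females, and these were spread over the catalytic core, the 19S particle, its chaperones and the PA28 cap. In males 6 of 49 members rose (adjusted p under 0.10 by the quasi-likelihood test of edgeR, with Benjamini-Hochberg correction across 18570 probes), which is 12.2%, where 4.65% of the 12996 genes tested rose. They were Psmb5, Psmb6, Psmd4, Psmd5, Psmd8 and Psme1. In females 4 of 49 rose, which is 8.16%, where 2.42% of all genes did, and they were Psmb6, Psmd2, Psmd4 and Psme1. Psmb6, Psmd4 and Psme1 rose in both sexes, 6.12% of the members where 1.56% of all genes did so. In males 1 member fell, the copy Psme2b, where 8.86% of all genes fell. In females no member fell by edgeR, where 2.51% of all genes did, and none had an unadjusted p under 0.05 in that direction, where 7.03% of all genes had. DESeq2 called 9 members raised and 1 lowered in males, with Psmc4, Psmd12 and Psmf1 beside those named, and 8 raised in females, with Psmb3, Psmb5, Psmd8 and Psme2 beside those named. It gave no adjusted p for 1 of the 50 members in males and 8 in females. With each sex fitted apart, 2 members rose in males and 10 in females. The shares of all genes called by DESeq2 or by these separate fits are not given here, so these counts have no background beside them. Without male 4 at 5 mg/kg, 3 members rose in males, and in females 2 rose without treated female 2 or 3 and 1 without control female 4.

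The direction of change was upward for most members, whether or not they passed the test. Log2 fold changes lay above 0 for 32 of 49 members in males and for 41 of 49 in females, which is 65.3% and 83.7%, where the shares of all genes were 43.7% and 48.3%. In both sexes together 29 members, or 59.2%, were above 0, where 27.2% of all genes were. At an unadjusted p under 0.05, 9 members were higher and 2 lower in males, where the shares of all genes were 7.95% and 16.2%, and 12 were higher in females, where the share was 6.43%. The median log2 fold change over the members was 0.15 in males and 0.36 in females, beside -0.11 and -0.02 over all genes. The probes of the members also had more counts, with a median of 4.70 on the log2 CPM scale over all mice beside 2.52 for all genes tested. Since probes differ in efficiency, this does not rank the abundance of the transcripts. The part of the count level in the shares of called genes was not tested.

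**Figure D1:**
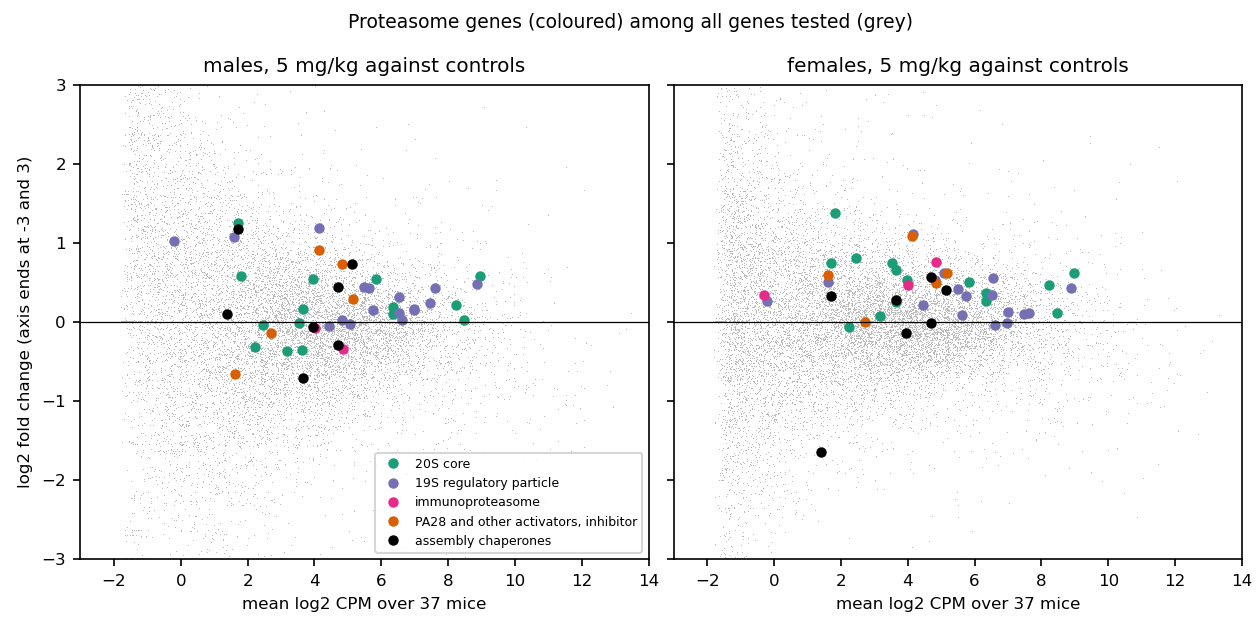
Log2 fold change at 5 mg/kg against controls of the same sex (vertical axis) by mean log2 CPM over 37 mice (horizontal axis), males left and females right. Each grey point is a gene, coloured points are proteasome genes by class, Psmb8 in males lies below the axis, and Psmc3ip and Psme2b are not drawn. Of the 47 genes with a class, 32 lie above 0 in males and 41 in females, with differences of under 1.5 on the log2 scale upward.

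The scaling of the libraries shifts all values in males. The median log2 fold change of all genes in males at 5 mg/kg was -0.11 with TMM scaling, -0.02 with DESeq2's size factors and 0.09 with library totals alone, and 6, 8 and 13 members rose with these scalings. Of all 12996 genes tested, 604, 752 and 1033 rose with the same scalings. Log2 fold changes in males at 5 mg/kg are given with TMM scaling and are to be read relative to its median.

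**Figure D2:**
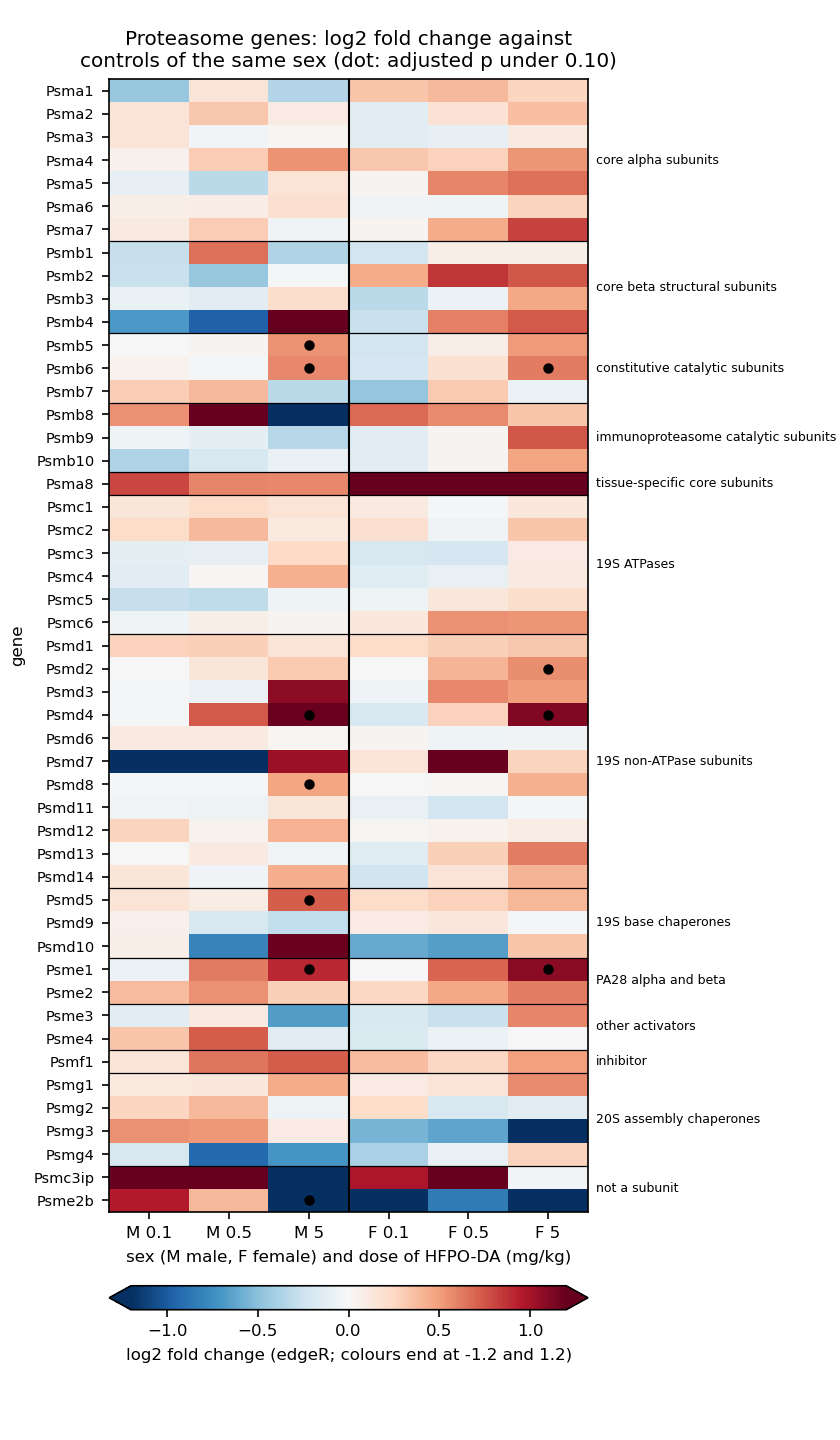
Log2 fold change of 49 proteasome genes (rows, grouped by class) against controls of the same sex, for males and females at each dose (columns, 0.1 to 5 mg/kg). Colours end at -1.2 and 1.2, and a black dot marks an adjusted p under 0.10. All dots lie in the 5 mg/kg columns, 7 in males and 4 in females.

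Among the constitutive catalytic subunits, Psmb6 and Psmb5 rose and Psmb7 did not pass the test. Psmb6, the caspase-like beta1 subunit, is encoded on chr11:70525367-70527858 (GRCm38, plus strand). Psmb6 stood at 576, 597, 588, 547 and 462 CPM in the 5 male controls and at 668, 905, 800 and 933 CPM in the 4 males at 5 mg/kg. Every male at 5 mg/kg was above every male control, and the log2 fold change was 0.58 ± 0.15 (SE, adjusted p = 0.0112, edgeR). In females Psmb6 stood at 464, 375, 474, 289 and 288 CPM in controls and at 559, 593, 654 and 517 CPM at 5 mg/kg. The female groups did not overlap either, with a log2 fold change of 0.62 ± 0.15 (adjusted p = 0.00989, edgeR). Psmb6 kept an adjusted p under 0.10 in both sexes in all 19 alternative analyses of each.

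Psmb5, the chymotrypsin-like beta5 subunit and the target of proteasome inhibitor drugs, lies on chr14:54614119-54618022 (GRCm38, minus strand). In males Psmb5 stood at 53.6, 62.8, 61.7, 85.6 and 41.2 CPM in controls and at 46.5, 110, 81.4 and 116 CPM at 5 mg/kg. The male groups overlapped, since 1 treated male lay among the controls, and the log2 fold change was 0.54 ± 0.20 (adjusted p = 0.0896, edgeR). That call was lost in 10 of 19 alternatives, among them the fits without male controls 1, 2, 3 or 5 or without treated males 2, 3 or 4 (adjusted p from 0.108 to 0.314, edgeR). Psmb5 in females stood at 53.0, 37.5, 54.7, 42.4 and 49.4 CPM in controls and at 67.1, 60.4, 72.0 and 69.8 CPM at 5 mg/kg. All females at 5 mg/kg were above all controls, yet the log2 fold change of 0.51 ± 0.20 did not pass the test (adjusted p = 0.224, edgeR). Over all members, 2 in males and 8 in females had no overlap with the controls and lay above them, where the shares of all genes were 2.96% and 4.69%. No member in males and Psmg3 in females lay below them, where the shares were 5.05% and 4.7%.

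The trypsin-like beta2 subunit Psmb7 was near the limit of detection in some mice. It stood at 2.81 to 6.85 CPM in male controls and at 0.943, 6.84, 0 and 8.19 CPM in males at 5 mg/kg, where the lowest 2 values came from the males with the smallest totals (4 and 0 counts). The log2 fold change was -0.32 ± 0.71 in males and -0.07 ± 0.70 in females (adjusted p = 0.862 and 1, edgeR), and its sign turned under other settings (0.056 in males without treated male 3). With Psmb7 included, the mean of the 3 catalytic genes relative to controls on the log2 scale had a median of -0.02 over the males at 5 mg/kg, where the median log2 fold change over the same genes was 0.54.

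The promoters of Psmb5 and Psmb6 are shown because both genes rose and both hold the core of the antioxidant response element, the sequence bound by Nrf1 and Nrf2. The letters TGACNNNGC were searched on both strands of RefSeq promoter windows (GRCm38.p6, 250 bases before to 50 after the start site), with matches in capitals. Windows were found for 42 of 50 members, 45 windows in all, and for each of the 7 members that rose in either sex. The match began 47 bases before the start site in Psmb5 (window chr14:54617946-54618245, minus strand) and 9 bases before it in Psmb6 (window chr11:70525107-70525406, plus strand). The 250 bases before each start site read as follows.
Psmb5: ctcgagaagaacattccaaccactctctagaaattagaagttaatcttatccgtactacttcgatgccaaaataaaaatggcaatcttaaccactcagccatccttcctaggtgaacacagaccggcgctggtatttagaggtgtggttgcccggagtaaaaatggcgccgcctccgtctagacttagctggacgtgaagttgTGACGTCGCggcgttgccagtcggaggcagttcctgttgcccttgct
Psmb6: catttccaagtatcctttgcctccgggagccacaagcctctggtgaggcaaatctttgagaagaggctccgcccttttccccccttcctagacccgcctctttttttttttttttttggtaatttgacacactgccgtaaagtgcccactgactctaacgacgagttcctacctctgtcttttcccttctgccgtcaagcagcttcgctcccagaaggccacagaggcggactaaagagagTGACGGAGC

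The matching stretches were TGACGTCGC in Psmb5 and TGACGGAGC in Psmb6. Among the members, 6 of 45 windows (13.3%) held these letters, where 12.4% of 32851 promoter windows did, and the others were Psmc6, Psmd12, Psmd9 and Psme4. Of the 7 genes that rose, Psmb5 and Psmb6 held them and Psmd2, Psmd4, Psmd5, Psmd8 and Psme1 did not. A match is a run of letters and was not tested as a binding site.

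The immunoproteasome counterparts Psmb8, Psmb9 and Psmb10 did not pass the test at any dose in either sex by edgeR with their highest probe. Psmb9, the beta1i subunit, stood at 19.7, 37.6, 28.6, 23.8 and 16.6 CPM in male controls and at 41.5, 10.8, 3.75 and 23.3 CPM in males at 5 mg/kg. The male values at 5 mg/kg lay on both sides of the controls, and the log2 fold change was -0.34 ± 0.45 (adjusted p = 0.735, edgeR). In females Psmb9 stood at 26.4, 42.6, 41.8, 35.2 and 53.8 CPM in controls and at 35.8, 122, 34.6 and 76.3 CPM at 5 mg/kg. Of these 4 females, 2 lay above every control and the other two among them, with a log2 fold change of 0.75 ± 0.43 (adjusted p = 0.557, edgeR). The female at 122 CPM also had the highest summed level of 7 macrophage markers of its group, 342 CPM beside 145 to 241 CPM. It had 40 counts of the leukocyte marker Cd52 beside 0 to 7 in the others. Its summed T and NK cell markers were the lowest of the group, 2.46 CPM beside 3.86 to 5.72 CPM. Its B and plasma cell markers, 4.47 CPM, lay among the others at 3.69 to 7.82 CPM. So did its summed dendritic cell and class II markers, 185 CPM, with the others at 102 to 196 CPM. The part of these cells in the value was not tested. The difference between the sexes in the response of Psmb9 was -1.09 ± 0.62 on the log2 scale, males minus females (adjusted p = 0.561, edgeR).

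Psmb10, the beta2i subunit, stood at 7.22 to 26.98 CPM in male controls and at 24.997, 10.3, 4.13 and 13.3 CPM in males at 5 mg/kg. Its mean in females was 22.4 ± 7.50 CPM in controls (SD, n = 5) and 31.03 ± 14.4 CPM at 5 mg/kg (SD, n = 4), where 1 female at 52.3 CPM stood apart from the other three at 21.0 to 26.2 CPM. The log2 fold changes of -0.08 ± 0.39 and 0.47 ± 0.38 did not pass the test (adjusted p = 0.950 and 0.824, edgeR). A second probe of Psmb10 had fewer counts and gave another result in males, with a mean of 10.9 CPM in controls, 3.83 CPM at 5 mg/kg and a log2 fold change of -1.43 ± 0.54 (adjusted p = 0.0959, edgeR).

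Psmb8, the beta5i subunit, was close to the limit of detection. It had 6, 9, 0, 0 and 0 counts in male controls and 0 counts in all 4 males at 5 mg/kg, which allows up to 0.134 CPM over that group (3 counts, counting error only). In females it had 10, 12, 9, 12 and 3 counts in controls and 0, 19, 18 and 15 counts at 5 mg/kg. The adjusted p was 0.154 in males and 1 in females (edgeR). A STAT site, the letters TTCNNNGAA, read TTCCCAGAA 97 bases before the start site of Psmb8, and 8.3% of all promoter windows hold such letters on either strand. No window of Psmb9 or Psmb10 held them, and in no window did they coincide with the antioxidant response element core. Among the genes that rose, only Psmd2 held them, as TTCTGGGAA within the first bases after its start site.

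**Figure D3:**
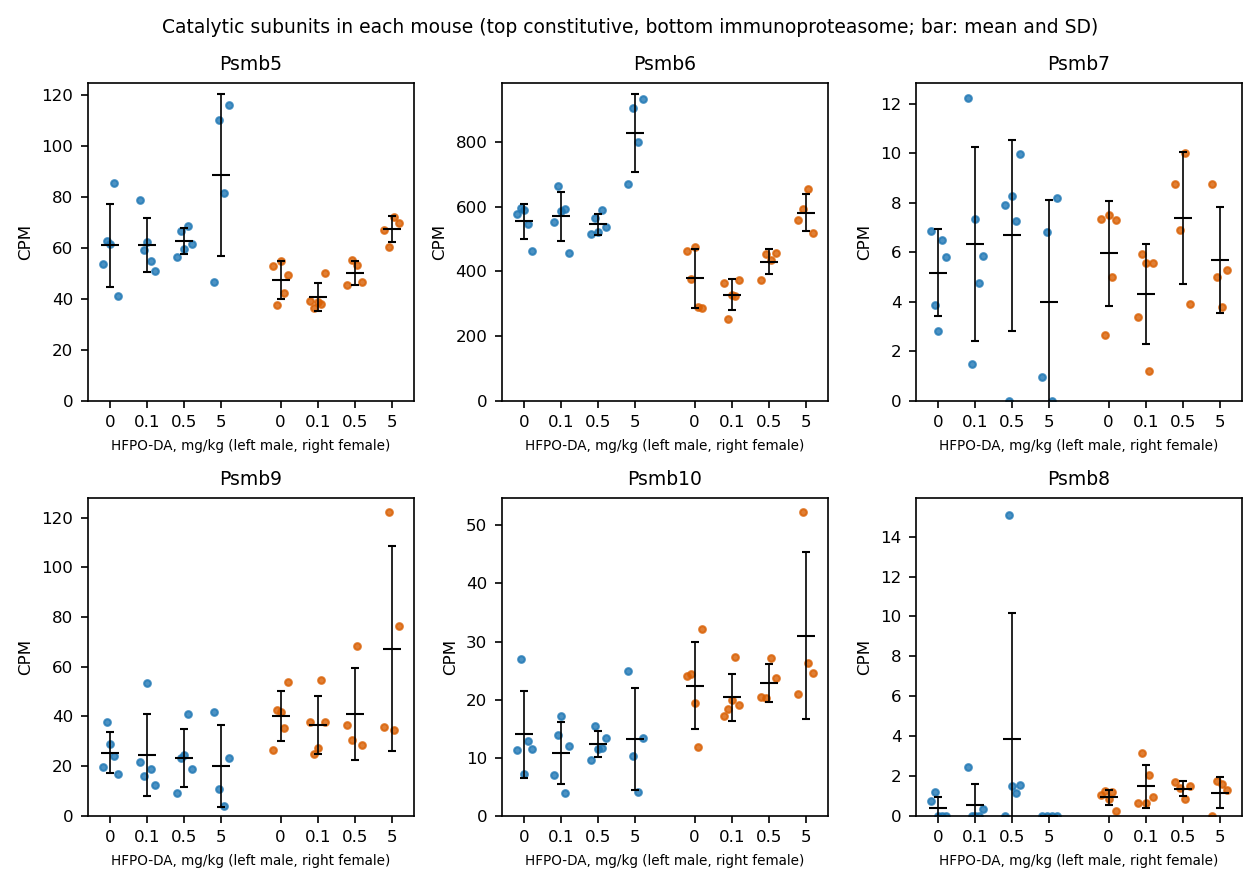
Level in CPM (vertical axes, from 0) of the constitutive catalytic subunits (top) and their immunoproteasome counterparts (bottom) by dose, males left in blue and females right in orange. Each point is a mouse, and bars give mean and SD of 4 or 5 mice. Psmb6 at 5 mg/kg lies above the controls in both sexes, whereas Psmb9 at 5 mg/kg runs from 3.75 to 41.5 CPM in males and from 34.6 to 122 CPM in females.

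The remaining core genes did not pass the test by edgeR, and of these DESeq2 called Psmb3 raised in females. In males the 7 alpha subunits had log2 fold changes from -0.35 to 0.54 at 5 mg/kg with a median of 0.10, and in females all 7 were above 0, from 0.11 to 0.81, with a median of 0.36. The 4 structural beta subunits (Psmb1 to Psmb4) had a median of 0.09 in males and 0.60 in females, with Psmb3 at 0.46 ± 0.17 in females (adjusted p = 0.150, edgeR). Psma8, the testis-specific alpha subunit, was read at low counts with a mean of 1.94 ± 1.17 CPM in female controls (SD, n = 5) and 5.05 ± 0.226 CPM in females at 5 mg/kg (SD, n = 4). Its female groups did not overlap, but the log2 fold change of 1.37 ± 0.85 did not pass the test (adjusted p = 0.621, edgeR).

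In the 19S regulatory particle the subunits called by edgeR were the non-ATPases Psmd2, Psmd4 and Psmd8. Psmd4, the ubiquitin receptor of the particle, on chr3:95032694-95042614 (GRCm38, minus strand), had the largest log2 fold change of the members that rose. In males Psmd4 stood at 12.5, 21.4, 18.2, 5.71 and 12.9 CPM in controls and at 34.4, 27.9, 43.1 and 23.9 CPM at 5 mg/kg. The treated males were all higher than any control, with a log2 fold change of 1.19 ± 0.30 (adjusted p = 0.00868, edgeR). Psmd4 in females stood at 15.3, 17.6, 17.7, 9.05 and 12.1 CPM in controls and at 29.3, 32.9, 30.5 and 30.97 CPM at 5 mg/kg. The 4 treated females lay close together and above all controls, with a log2 fold change of 1.11 ± 0.30 (adjusted p = 0.0240, edgeR). The call was lost in males without the 4 mice under 5000000 counts (log2 fold change 0.84, adjusted p = 0.138, edgeR) and in females without control 4, the mouse at 9.05 CPM (log2 fold change 0.96, adjusted p = 0.113, edgeR). A second probe of Psmd4, with 527 counts over all mice beside 6123 for the first, was at -0.66 ± 1.33 (males) and -0.0094 ± 1.28 (females) on the same scale.

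Psmd8, a subunit of the lid of the particle, is on chr7:29174188-29180701 (GRCm38, minus strand). It stood at 547, 426, 488, 567 and 493 CPM in male controls and at 495, 699, 778 and 831 CPM in males at 5 mg/kg. Of the treated males, 3 lay above every control and 1 among them, with a log2 fold change of 0.47 ± 0.14 (adjusted p = 0.0306, edgeR). Without male control 2 or treated male 4 the adjusted p was 0.113 or 0.154 (edgeR). In females Psmd8 stood at 398, 347, 494, 387 and 314 CPM in controls and at 567, 521, 535 and 458 CPM at 5 mg/kg. Here too 3 of 4 treated mice lay above every control, and the log2 fold change of 0.42 ± 0.14 missed the threshold (adjusted p = 0.111, edgeR) but passed it in 11 of 20 alternatives. A second probe of Psmd8 was at 0.18 ± 0.43 (males) and 0.81 ± 0.42 (females) on the log2 scale, and neither passed the test.

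Psmd2, the scaffold subunit of the base and a docking site for ubiquitin receptors, is on chr16:20651652-20663414 (GRCm38, plus strand). It stood at 73.4, 92.7, 99.2, 49.6 and 72.2 CPM in female controls and at 110, 117, 115 and 115 CPM in females at 5 mg/kg. The treated females all lay above the controls, with a log2 fold change of 0.56 ± 0.18 (adjusted p = 0.0867, edgeR), although this call was lost in 9 of 20 alternatives, including the fit without any 1 of the treated females or of controls 1, 4 and 5 (log2 fold change 0.42 to 0.58, adjusted p from 0.156 to 0.350, edgeR). In males Psmd2 stood at 104, 73.9, 114, 74.8 and 90.4 CPM in controls and at 110, 105, 136 and 104 CPM at 5 mg/kg. The male groups overlapped, and the log2 fold change was 0.31 ± 0.18 (adjusted p = 0.306, edgeR). For a second probe of nearly equal total count, the log2 fold change was 0.44 ± 0.20 (males) and 0.34 ± 0.20 (females).

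The other non-ATPase subunits and the ATPases did not pass the test by edgeR with their highest probe, and of these DESeq2 called Psmc4 and Psmd12 raised in males. Over the 11 non-ATPase subunits tested, the median log2 fold change was 0.42 in males and 0.41 in females, and 10 and 9 of them were above 0. Over the 6 ATPases, which unfold substrates at the base of the particle, the median was 0.14 in males and 0.17 in females, and Psmc4 had the smallest p in males at 0.43 ± 0.17 (adjusted p = 0.109, edgeR). Psmd13 was noticed after its values were seen, since its second probe rose in both sexes. That probe went from a mean of 13.5 to 26.8 CPM in males and from 8.62 to 18.4 CPM in females, with log2 fold changes of 0.98 ± 0.30 and 1.09 ± 0.30 (adjusted p = 0.0294 and 0.0240, edgeR). The first probe of Psmd13 was at -0.03 ± 0.25 in males and 0.62 ± 0.25 in females (adjusted p = 0.969 and 0.233, edgeR), so its probes differed in males. Over all members, 20 further probes of 17 genes were tested, and 14 in males and 12 in females had the sign of the first probe.

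**Figure D4:**
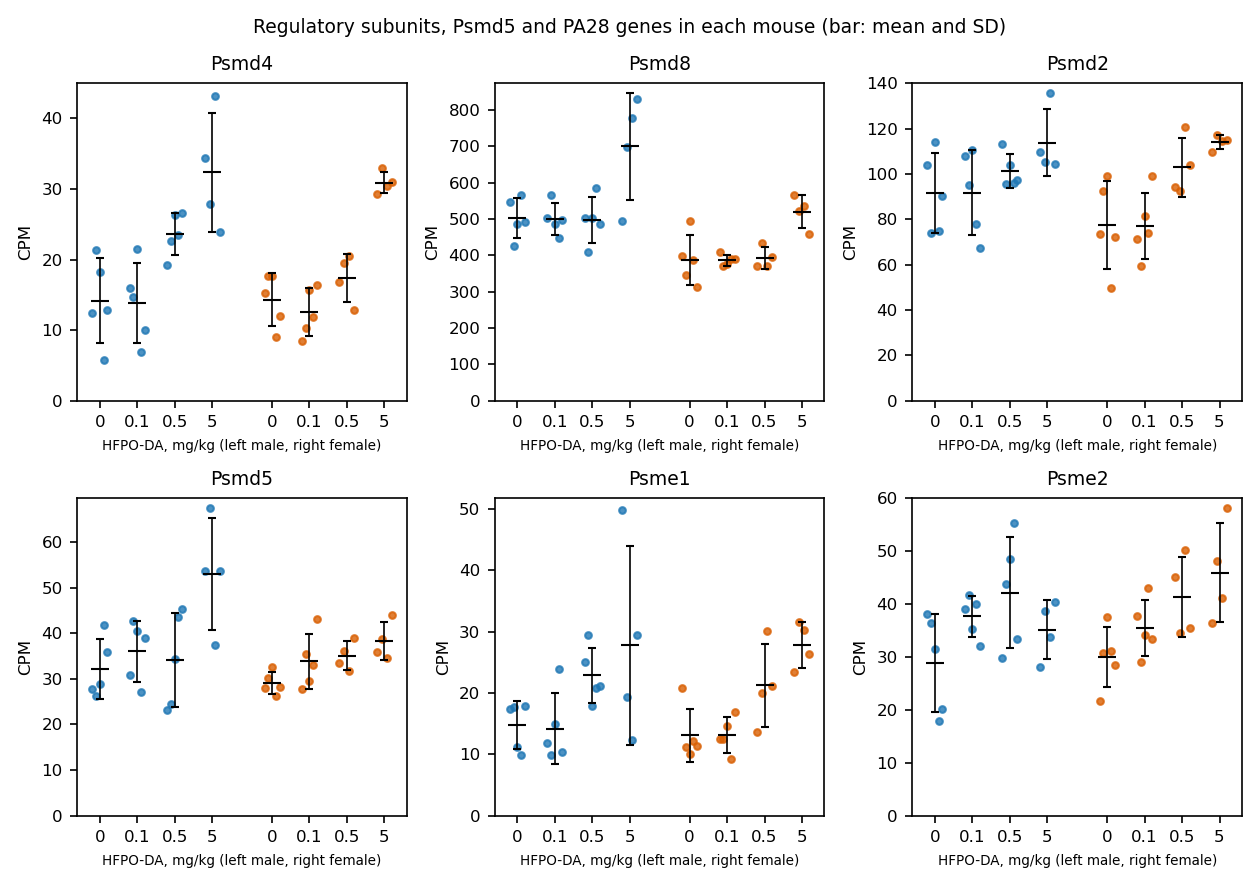
Level in CPM (vertical axes, from 0) of the 19S subunits Psmd4, Psmd8 and Psmd2, the chaperone Psmd5 and the PA28 genes Psme1 and Psme2 by dose, males left in blue and females right in orange. Each point is a mouse, and bars give mean and SD of 4 or 5 mice. Psmd4 lies between 23.9 and 43.1 CPM in males and between 29.3 and 32.9 CPM in females at 5 mg/kg, above the controls of its sex.

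Psmd5, a chaperone of the assembly of the 19S base, is on chr2:34849734-34874968 (GRCm38, minus strand). It stood at 27.9, 26.3, 28.9, 41.9 and 35.8 CPM in male controls and at 53.8, 67.5, 37.5 and 53.6 CPM in males at 5 mg/kg. All treated males but the 1 at 37.5 CPM lay above the controls, with a log2 fold change of 0.73 ± 0.21 (adjusted p = 0.0234, edgeR). Without treated male 2, at 67.5 CPM, it was 0.56 (adjusted p = 0.121, edgeR). Psmd5 in females went from 27.97, 30.2, 32.5, 26.3 and 28.1 CPM in controls to 35.9, 38.8, 34.5 and 44.0 CPM at 5 mg/kg. These female groups did not overlap, and the log2 fold change of 0.40 ± 0.21 did not pass the test (adjusted p = 0.467, edgeR). The chaperones Psmd9 and Psmd10 were at -0.30 ± 0.31 and 1.18 ± 0.85 (log2 fold change, males) and -0.02 ± 0.30 and 0.33 ± 0.84 (females), and none passed. The 4 chaperones of core assembly (Psmg1 to Psmg4) had medians of 0.02 in males and 0.07 in females, with Psmg3 at -1.64 ± 0.93 in females (adjusted p = 0.536, edgeR), where the treated females all lay below the controls.

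Psme1 and Psme2 encode the alpha and beta chains of the PA28 cap and lie close together on chromosome 14, Psme1 at chr14:55578123-55581529 and Psme2 at chr14:55587441-55591113 (GRCm38). Psme1 stood at 17.4, 17.6, 11.2, 9.83 and 17.9 CPM in male controls and at 49.8, 19.3, 12.4 and 29.5 CPM in males at 5 mg/kg. In males 3 of 4 treated mice lay above every control, over a wide range, and the log2 fold change was 0.91 ± 0.32 (adjusted p = 0.0677, edgeR). In females Psme1 stood at 20.7, 11.2, 10.1, 12.2 and 11.4 CPM in controls and at 23.3, 31.6, 30.3 and 26.3 CPM at 5 mg/kg. The female groups did not overlap, although 1 control lay far above the other four, and the log2 fold change was 1.09 ± 0.32 (adjusted p = 0.0401, edgeR). The calls of Psme1 were lost in 7 of 19 alternatives in males and in 6 of 19 in females. Without treated male 1, at 49.8 CPM, the log2 fold change was 0.44 (adjusted p = 0.430, edgeR), and without treated male 4 or male controls 3 or 4 the adjusted p was 0.118 to 0.157. Treated male 1 also had the highest summed macrophage markers of its group, 252 CPM beside 79.9 to 160 CPM, and the highest Psmb9 and Psmb10. Its summed dendritic cell and class II markers were the highest too, 169 CPM beside 60.0 to 86.4 CPM. By contrast its T and NK cell markers were the lowest, 0 CPM beside 0.110 to 4.88 CPM. Its B and plasma cell markers, 5.42 CPM, lay among the others at 3.40 to 11.3 CPM. The part of all these cells in the call was not tested. In females the adjusted p was 0.108 to 0.142 (edgeR) without treated mouse 2 or 3 or control 2, 3 or 4.

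Psme2 did not pass the test at any dose by edgeR, while in females at 5 mg/kg it did with DESeq2 (adjusted p = 0.0455), with each sex fitted apart (0.0320, edgeR) and with library totals alone (0.0814, edgeR). It stood at 21.7, 30.8, 37.5, 31.1 and 28.6 CPM in female controls and at 36.4, 48.2, 41.2 and 58.1 CPM in females at 5 mg/kg, with a log2 fold change of 0.62 ± 0.22 (adjusted p = 0.151, edgeR). Its male values at 5 mg/kg, from 28.1 to 40.3 CPM, overlapped the control range of 17.9 to 38.2 CPM (log2 fold change 0.29 ± 0.23, adjusted p = 0.491, edgeR). Psme2b, the copy whose reads may be shared with Psme2, had 17, 0, 0, 0 and 18 counts in male controls and 0 counts in all males at 5 mg/kg, a level at least 6.89-fold lower against a floor of 3 counts over the group (adjusted p = 0.0937, edgeR). This call rested on 2 control mice and was lost in 11 of 18 alternatives, among them the fits without either of these controls (adjusted p = 0.141 and 0.166, edgeR) or without any treated male (0.146 to 0.164). For the inhibitor Psmf1 the log2 fold change was 0.73 ± 0.33 (males) and 0.49 ± 0.33 (females) (adjusted p = 0.172 and 0.689, edgeR), and DESeq2 called it raised in males. The activators Psme3 and Psme4 were at -0.67 ± 0.85 and -0.14 ± 0.69 in males and at 0.59 ± 0.83 and 0.00 ± 0.70 in females, and neither passed.

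**Figure D5:**
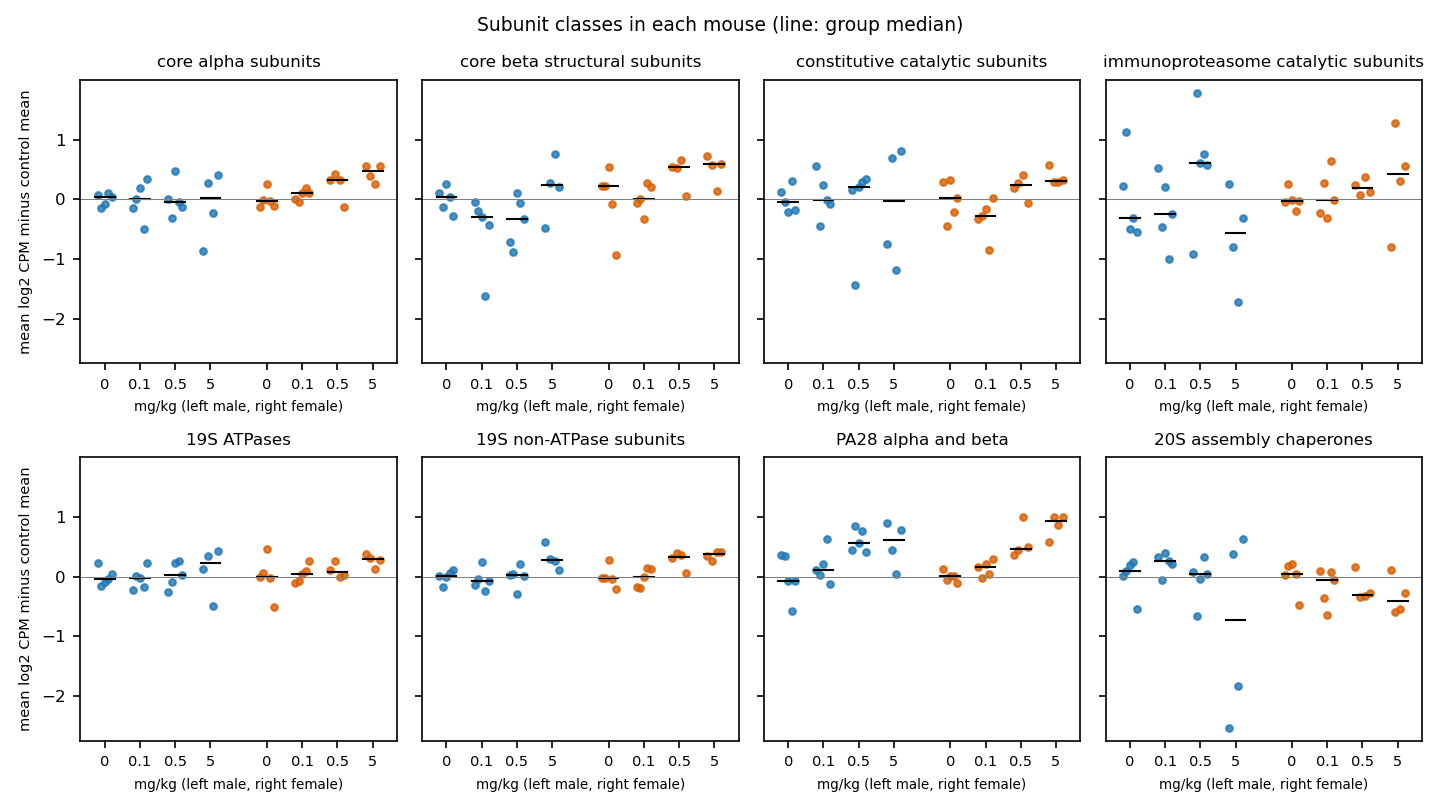
Mean over the genes of a class of log2 CPM minus the mean of the control mice of the same sex (vertical axes), by dose, males left in blue and females right in orange. Each point is a mouse and each line the group median. In females the PA28 pair at 0.5 and 5 mg/kg lies above every control, whereas in males at 5 mg/kg it overlaps the controls. The spread among males at 5 mg/kg is wide for the constitutive catalytic subunits (-1.17 to 0.81) and the 20S assembly chaperones (-2.53 to 0.63).

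The classes were also read mouse by mouse. On the log2 scale relative to the control mean, the PA28 pair lay between 0.59 and 1.01 in females at 5 mg/kg, where female controls lay between -0.10 and 0.13. In males at 5 mg/kg it lay between 0.04 and 0.90 and overlapped the male controls, at -0.57 to 0.37. The 19S base chaperones lay between 0.59 and 0.82 in males at 5 mg/kg, where male controls lay between -0.98 and 0.52. In females they lay between 0.15 and 0.39 and overlapped the controls, at -0.33 to 0.33. This class has 3 genes that differed in males at 5 mg/kg. Their log2 fold changes were -0.30 for Psmd9, 0.73 for Psmd5, which was called, and 1.18 for Psmd10. Psmd10 was read at low counts, with 0 in 3 of 37 mice. The 19S non-ATPase subunits lay between 0.26 and 0.42 in females at 5 mg/kg, where controls lay between -0.20 and 0.28, so that their ranges met at the edge. In males at 5 mg/kg the 19S non-ATPase subunits lay between 0.11 and 0.58, where male controls lay between -0.17 and 0.11. The 3 immunoproteasome genes, Psmb8 at 0 counts in all males of this dose among them, spread from -1.71 to 0.26 in males and from -0.79 to 1.27 in females at 5 mg/kg.

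At 0.5 mg/kg no member rose or fell in either sex by edgeR, and none did by DESeq2, which gave no adjusted p for 24 of the 50 members in females and 1 in males. By edgeR, 0.423% of all genes rose and 0.277% fell in males, and 0.123% rose and 0.00769% fell in females. At an unadjusted p under 0.05, 5 members were higher in each sex, which is 10.2%, where the shares of all genes were 4.16% in males and 2.32% in females. None was lower, where 6.21% of all genes were in males and 2.45% in females. The genes were Psmb8, Psmd4, Psme1, Psme2 and Psmf1 in males and Psmb2, Psmc6, Psmd2, Psme1 and Psme2 in females. Both PA28 genes were thus in both sets, although they did not pass the adjusted test.

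The means of the PA28 genes at 0.5 mg/kg lay between those of controls and 5 mg/kg, except for Psme2 in males, where they were 28.8 CPM in controls, 42.2 CPM at 0.5 mg/kg and 35.2 CPM at 5 mg/kg. Psme1 had a mean of 22.9 ± 4.45 CPM in males (SD, n = 5) and 21.3 ± 6.80 CPM in females (SD, n = 4) at 0.5 mg/kg, beside 14.8 ± 3.93 and 13.1 ± 4.32 CPM in the controls (SD, n = 5 each). Its log2 fold changes were 0.62 ± 0.30 and 0.70 ± 0.32 (adjusted p = 0.472 and 1, edgeR). Psmd4 in males stood at 19.2, 22.6, 26.3, 23.5 and 26.6 CPM at 0.5 mg/kg, which is 23.6 ± 3.02 CPM beside 14.1 ± 6.01 CPM in controls (SD, n = 5 each), and in females its mean was 17.4 ± 3.41 CPM (SD, n = 4). Psmb6 had 545 ± 31.9 CPM in males at 0.5 mg/kg beside 554 ± 54.7 CPM in controls (SD, n = 5 each), with a log2 fold change of -0.02 ± 0.14, and in females its mean was 430 ± 38.6 CPM (SD, n = 4) beside 378 CPM in controls and 581 CPM at 5 mg/kg. All doses were compared with the same control mice, so these values are not independent of those at 5 mg/kg.

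At 0.1 mg/kg no member rose or fell by edgeR or DESeq2, and neither did any other gene by edgeR, with 0% called in each direction and sex. At an unadjusted p under 0.05 there was no member in males, where 3.25% of all genes were higher and 4.15% lower. In females Psmb3 alone was lower, and none was higher, where 1.06% of all genes were higher and 1.58% lower. Psmb6 stood at 570 ± 75.4 CPM in males and 328 ± 47.5 CPM in females at this dose (SD, n = 5 each).

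No member passed the test of a difference between the sexes in the response to 5 mg/kg, by edgeR or DESeq2, where 0.185% of all genes had a larger and 0.439% a smaller log2 fold change in males. At an unadjusted p under 0.05, Psmb8 alone had a smaller log2 fold change in males and no member a larger one, where the shares of all genes were 7.53% and 3.32%. The difference, males minus females on the log2 scale, was -0.04 ± 0.22 for Psmb6, 0.08 ± 0.43 for Psmd4, -0.18 ± 0.45 for Psme1 and 0.33 ± 0.30 for Psmd5, with adjusted p from 0.814 to 1 (edgeR). The 95% intervals ran from -0.47 to 0.38 for Psmb6, from -0.76 to 0.92 for Psmd4, from -1.06 to 0.70 for Psme1 and from -0.26 to 0.92 for Psmd5, so the missed threshold does not show that the sexes responded alike. At 0.5 mg/kg no member passed, where 0.00769% of all genes did in each direction, and at an unadjusted p under 0.05 Psma5 and Psmb2 had a smaller log2 fold change in males and none a larger one, where the shares were 2.91% and 2.38%.

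In the controls, Psmb6 was lower in females than in males and no other member passed the test by edgeR. The means were 378 ± 90.5 CPM in females and 554 ± 54.7 CPM in males (SD, n = 5 each), and the log2 difference, female minus male, was -0.55 ± 0.14 (adjusted p = 0.0291, edgeR), where 1.34% of all genes were lower and 1.51% higher in females. Of the 5 female controls, the lowest 2 (289 and 288 CPM) lay far under all males, and 2 others (464 and 474 CPM) overlapped the lowest male at 462 CPM. Leaving out either of the low females, replicate 4 or 5, ended the call (log2 difference -0.49 and -0.47, adjusted p = 0.125 and 0.143, edgeR). Psmd8 was next with -0.38 ± 0.14 (adjusted p = 0.199, edgeR), and DESeq2 called it and Psmb6. At an unadjusted p under 0.05 the shares of all genes were 6.95% higher and 5.05% lower in females. Psmb9 and Psmb10 were at 0.66 ± 0.41 and 0.68 ± 0.36 in the other direction (adjusted p = 0.682 and 0.528, edgeR), and the summed level of 7 macrophage markers was 147 to 291 CPM in female and 64.6 to 281 CPM in male controls.

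Genes that work with the proteasome were taken from lists outside the symbol rule. Of 15 partners tested (such as the ubiquitin receptor Adrm1, the lid component Sem1, the maturation factor Pomp and the deubiquitinase Usp14), none rose or fell in either sex at 5 mg/kg by edgeR. Over all genes 4.65% rose and 8.86% fell in males, and 2.42% rose and 2.51% fell in females. At such shares a list this short may hold no call. For the partners only the medians are compared with all genes. Their median log2 fold change was -0.05 in males and -0.10 in females, beside -0.11 and -0.02 over all genes. Adrm1 was at 0.39 ± 0.29 in males and 0.32 ± 0.29 in females. Of 6 genes for ubiquitin and its activating enzymes none passed either, beside the same shares of all genes, with medians of -0.06 in males and 0.21 in females.

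In females none of 11 genes of the Nrf1 and Nrf2 pathways passed at 5 mg/kg. Over all genes 2.42% rose and 2.51% fell in females. In males 1 of the 11 rose, where 4.65% of all genes did. It was Srxn1 (sulfiredoxin, which repairs oxidised peroxiredoxins), which went from a mean of 4.34 to 29.7 CPM with a log2 fold change of 2.77 ± 0.80 (adjusted p = 0.0217, edgeR). The median log2 fold change of the list was 0.26 in males and 0.05 in females, beside -0.11 and -0.02 over all genes. Nfe2l1 itself, named after its values were seen, had means of 284 CPM in male controls, 360 CPM in males at 5 mg/kg, 281 CPM in female controls and 363 CPM in females at 5 mg/kg. Its treated mice lay above all controls in either sex, as did 2.96% of all genes in males and 4.69% in females. The log2 fold changes of 0.35 ± 0.16 and 0.37 ± 0.16 did not pass the test (adjusted p = 0.173 and 0.281, edgeR).

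Of 13 genes of MHC class I antigen processing and interferon signalling tested, which act with the immunoproteasome, 2 fell in males at 5 mg/kg. Over all genes 8.86% fell in males at this dose. None of the 13 passed in females, where 2.42% of all genes rose and 2.51% fell. H2-K1, a class I heavy chain, fell from a mean of 753 to 396 CPM (log2 fold change -0.93 ± 0.30, adjusted p = 0.0419, edgeR). Erap1, the aminopeptidase that trims peptides for class I, fell from 144 to 90.8 CPM (log2 fold change -0.67 ± 0.18, adjusted p = 0.0112, edgeR). The medians of the list were -0.21 in males and 0.23 in females, beside -0.11 and -0.02 over all genes. Beside these values, none of the 7 macrophage markers and none of the 3 tested T and NK cell markers passed at 5 mg/kg in either sex. Of the 3 leukocyte markers Ptprc, Cd52 and Coro1a, Cd52 alone was called, in males. It had 4, 5, 0, 19 and 6 counts in male controls and 0 counts in all males at 5 mg/kg (adjusted p = 0.0981, edgeR). The summed level of these 3 genes ran from 15.7 to 48.3 CPM in male controls. In males at 5 mg/kg it ran from 9.38 to 38.9 CPM, with medians of 24.9 and 24.7 CPM. The summed macrophage markers ran from 79.9 to 252 CPM in males and from 145 to 342 CPM in females at 5 mg/kg, within or around the ranges of the controls, and their part in the values of Psmb9, Psmb10 and Psme1 was not tested.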

How the data were processed

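TempO-Seq products of 37 livers were sequenced, and the authors deposited counts of reads per probe, without normalization. Per the labels bcl2fastq 2.17.1.14 and Bowtie were used, and the genome build is not given in the sources used here. The authors removed 3 of 40 mice for low depth or few probes. Mice were grouped by the labels for sex and dose, and each mouse is a replicate (totals of 2101500 to 13878300 counts, no identical libraries, within-group correlations of log2 CPM 0.738 to 0.949 over probes).

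Analyses of counts used edgeR 4.0.16 (R 4.3.3). The function filterByExpr kept 18570 of 30146 probes, TMM factors were applied, and 8 group means were estimated over all 37 mice in the quasi-likelihood framework, with Benjamini-Hochberg adjustment over probes and a threshold of 0.10. The shares of all genes use the highest probe of each of 12996 genes. SE is the log2 fold change divided by the root of the F statistic. Self-tests on simulated data were run. Alternatives were DESeq2 1.42.0, other scalings and filters, a robust fit, each sex apart, summed or second probes, thinned counts, a threshold of 0.05 and leaving out mice.

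Named were members called at any dose, Psmb5 to Psmb10, Psme1 and Psme2, the 5 smallest p at 5 mg/kg where fewer were called, and up to 4 called genes of each list, with other names given for class extremes after their values were seen. Members and lists were chosen with earlier results of these data known. Gene positions are from GENCODE M21 and promoters from RefSeq (GRCm38.p6). Figures were drawn with matplotlib 3.10.9.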

Additional observations from a re-analysis of the deposited data

Results flagged for a closer look

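In 10 of 95 groups of named genes tested, 1 mouse stood apart from the others of its group, where chance would give about 1 in 20 for independent groups. The groups share the same 37 mice and some hold counts near 0, so no excess can be read from this. Psmb10 was at 26.98 CPM in male control 2 (others 7.22 to 12.9 CPM), at 27.4 CPM in female 4 at 0.1 mg/kg (17.2 to 19.9 CPM) and at 52.3 CPM in female 2 at 5 mg/kg (21.0 to 26.2 CPM). Male control 2 and female 2 also had the highest summed macrophage markers of their groups. These were 281 CPM beside 64.6 to 145 CPM and 342 CPM beside 145 to 241 CPM. Female 4 at 0.1 mg/kg did not, with 179 CPM, among the others of its group at 153 to 203 CPM. Summed T and NK cell markers were the highest of the group in male control 2, 10.4 CPM beside 0 to 2.84 CPM. In female 2 they were the lowest, 2.46 CPM beside 3.86 to 5.72 CPM. In female 4 at 0.1 mg/kg they were 7.51 CPM, among the others at 4.09 to 10.2 CPM. The part of these cells in the values was not tested. Psmb9 was at 53.3 CPM in male 3 at 0.1 mg/kg (12.4 to 21.5 CPM). Psmb8 was at 2.42 CPM in male 1 at 0.1 mg/kg (0 to 0.319 CPM) and at 15.1 CPM in male 2 at 0.5 mg/kg (0 to 1.54 CPM), the same mouse in which Psmb7 was at 0 CPM (7.28 to 9.98 CPM in the others) and whose total of 2608950 counts was the lowest of its group. Psmb5 was at 50.2 CPM in female 5 at 0.1 mg/kg (36.6 to 39.2 CPM). Psmd2 was at 136 CPM in male 3 at 5 mg/kg (104 to 110 CPM), the mouse with the smallest total of all, 2101500 counts. Psme1 was at 20.7 CPM in female control 1 (10.1 to 12.2 CPM).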

How the results depend on the processing

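The number of members raised in males at 5 mg/kg (6) became 13 with library totals alone, 2 with each sex fitted apart, 10 with probes of a gene summed and 1 with the second probe, which only some genes have, and 3 to 6 with 1 mouse left out. In females (4) it became 7, 10, 8 and 1 under these settings, 8 with DESeq2 and 1 to 4 with 1 mouse left out. With library totals alone, 1033 of all 12996 genes rose in males and 426 in females, beside 604 and 315 with TMM scaling. For the other settings named here the shares of all genes are not given. The 1 member lowered in males was lost (0) with DESeq2 size factors, library totals, no filter, each sex apart, thinned counts, a threshold of 0.05 or without the 4 mice under 5000000 counts (an alternative chosen after seeing the data), and ranged from 0 to 1 with 1 mouse left out. The 1 member lower in female controls became 0 with library totals or the second probe, 2 with DESeq2 size factors, a mean of at least 10 counts, summed probes, thinned counts, DESeq2 or without those 4 mice, and 0 to 2 with 1 mouse left out. Under library totals the class medians in males at 5 mg/kg were 0.32 for alpha, 0.33 for structural beta, 0.77 for constitutive catalytic, 0.35 for ATPase and 0.63 for non-ATPase subunits. The log2 fold change of Psmb10 in males reversed to 0.028 with DESeq2 size factors and DESeq2 and 0.14 with library totals, and ran from -0.60 to 0.27 with 1 mouse left out. That of Psmb7 reversed in males to 0.49 without those 4 mice and ran from -0.92 to 0.056 with 1 mouse left out, and in females to 0.012 with library totals and 0.10 with thinned counts, and ran from -0.35 to 0.086 with 1 mouse left out. Second probes gave -0.66 (Psmd4, males), -0.0094 (Psmd4, females) and -4.56 (Psme2, males). The cause of these changes was not tested. Of 498 values of named genes under alternatives, 411 kept direction and side of the threshold, 51 lost and 19 gained the call, and 17 reversed. No paired analysis was possible because the labels give no replicate numbers shared between groups. The smallest totals limit genes of few counts, such as Psmb7 and Psmb8.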
